A study of Rattus norvegicus with 28 samples.

Results

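The cholesterol synthesis genes described here are 8 genes chosen by symbol from the 11383 genes listed in the RNA table: the sterol-responsive transcription factor gene Srebf2 and the enzyme genes Hmgcs1, Idi1, Fdps, Fdft1, Sqle, Msmo1 and Dhcr7. None of the 8 takes up cholesterol, so uptake genes are given separately. All 8 were among the 11033 genes tested. The RNA came from cardiomyocytes, the contractile cells of the heart, isolated from rats aged 6 to 8 months and kept in culture for 48 hours. One group of 3 libraries came from cells given a null adenovirus and the other group of 3 from cells given an adenovirus encoding an shRNA against desmin (shDesmin), the intermediate filament protein typical of muscle cells. The other 22 of the 28 samples were Lamin B chromatin immunoprecipitation or input libraries from cells given shDesmin or a scrambled shRNA, and they enter here only through a list of lamina-associated domains (LADs). The RNA controls carried no shRNA, so the loss of desmin and the presence of an shRNA cannot be told apart. Nothing in the labels says that same-group RNA libraries are independent animals or cultures, so p-values measure only the spread between these libraries.

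Cholesterol is built from acetyl-CoA. The early enzymes make mevalonate and then isoprene units, the middle ones join these into squalene, and the late ones turn the first sterol, lanosterol, into cholesterol. The genes of the route are classic targets of the sterol regulatory element binding protein SREBP-2, the product of Srebf2. This protein is held in the endoplasmic reticulum when sterols are plentiful and is cleaved and sent to the nucleus when they are scarce. At sterol-regulated promoters it is known to act beside the CCAAT-binding factor NF-Y and the GC box factor Sp1. Heart muscle both makes cholesterol and takes it up from lipoproteins.

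Promoter sequences were looked at as a feature outside the RNA values. RefSeq (GRCr8) gave a promoter for 6 of the 8, and Fdft1 and Sqle are named only. The 250 bases before the RefSeq start are printed 5′ to 3′ on the gene's strand, with each CCAAT box (CCAAT, or ATTGG for the other strand) in capitals, because NF-Y, which binds it, is a known partner of SREBP-2 and 4 of the windows held 2 or more. In GRCr8 the stretches are chr7:115543057-115543306 (plus strand) for Srebf2, chr2:53382054-53382303 (plus strand) for Hmgcs1, chr17:66547525-66547774 (minus strand) for Idi1, chr2:176804817-176805066 (minus strand) for Fdps, chr16:29746863-29747112 (plus strand) for Msmo1 and chr1:208444184-208444433 (plus strand) for Dhcr7.
Srebf2: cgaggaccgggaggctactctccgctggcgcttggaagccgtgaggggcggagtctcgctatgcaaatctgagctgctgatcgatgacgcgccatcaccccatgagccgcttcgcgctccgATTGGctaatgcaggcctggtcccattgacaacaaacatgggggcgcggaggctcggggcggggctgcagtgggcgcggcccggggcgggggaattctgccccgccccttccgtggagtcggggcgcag
Hmgcs1: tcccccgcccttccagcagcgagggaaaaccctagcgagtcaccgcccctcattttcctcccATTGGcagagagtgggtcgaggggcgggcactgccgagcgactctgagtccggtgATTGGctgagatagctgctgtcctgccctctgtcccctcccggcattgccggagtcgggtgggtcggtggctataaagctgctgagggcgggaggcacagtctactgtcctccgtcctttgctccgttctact
Idi1: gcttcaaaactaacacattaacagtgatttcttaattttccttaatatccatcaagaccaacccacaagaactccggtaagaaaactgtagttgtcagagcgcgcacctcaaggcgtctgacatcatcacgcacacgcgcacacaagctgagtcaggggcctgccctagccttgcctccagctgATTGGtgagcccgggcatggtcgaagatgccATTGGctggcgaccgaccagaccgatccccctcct
Fdps: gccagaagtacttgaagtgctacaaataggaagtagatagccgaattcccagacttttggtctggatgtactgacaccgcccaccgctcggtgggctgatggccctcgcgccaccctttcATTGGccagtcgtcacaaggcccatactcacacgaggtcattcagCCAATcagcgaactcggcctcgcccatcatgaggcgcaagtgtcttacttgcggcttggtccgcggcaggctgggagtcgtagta
Msmo1: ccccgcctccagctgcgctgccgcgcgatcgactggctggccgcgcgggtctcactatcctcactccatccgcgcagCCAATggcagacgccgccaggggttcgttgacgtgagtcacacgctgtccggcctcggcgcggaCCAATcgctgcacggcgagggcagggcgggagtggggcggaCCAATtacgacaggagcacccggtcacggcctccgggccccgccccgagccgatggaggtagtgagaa
Dhcr7: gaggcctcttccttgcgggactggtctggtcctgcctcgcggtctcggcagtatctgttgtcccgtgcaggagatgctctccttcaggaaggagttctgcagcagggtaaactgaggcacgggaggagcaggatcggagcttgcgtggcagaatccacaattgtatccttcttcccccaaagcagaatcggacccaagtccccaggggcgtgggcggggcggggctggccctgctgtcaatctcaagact

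At least 1 CCAAT box was found in 5 of the 6 windows of 300 bases (250 before and 50 after the start), and 2 or more in 4 of them. Of all 33469 promoter windows 37.5% held one and 11.2% held 2 or more, and for the 9509 windows of tested genes the shares were 37.6% and 13.7%. Msmo1 held 3, Hmgcs1, Idi1 and Fdps held 2 each, Srebf2 held 1 and Dhcr7 none. In Msmo1 they began at -173, -109 and -68, counting the first transcribed base as 0, and in Idi1 they began at -66 and -35. The GC box (GGGCGG, or CCGCCC) was found in 5 of 6, all but Idi1, against 33.1% of all windows and 62.8% of the windows of tested genes. The 9-letter core of the sterol regulatory element (TCACNCCAC, or GTGGNGTGA) matched none of the 6, 1.12% of all windows and 1.14% of those of tested genes. Its 8-letter form (TCACNCCA, or TGGNGTGA), an alternative chosen after seeing the data, overlaps the 9-letter form. It matched Srebf2 at -156 and Msmo1 at -190, against 3.89% of all windows and 3.35% of those of tested genes. The E-box CACGTG matched none of the 6, 6.42% of all windows and 9.65% of those of tested genes. These are matches of letters in 6 windows and say nothing about binding.

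**Figure D1:**
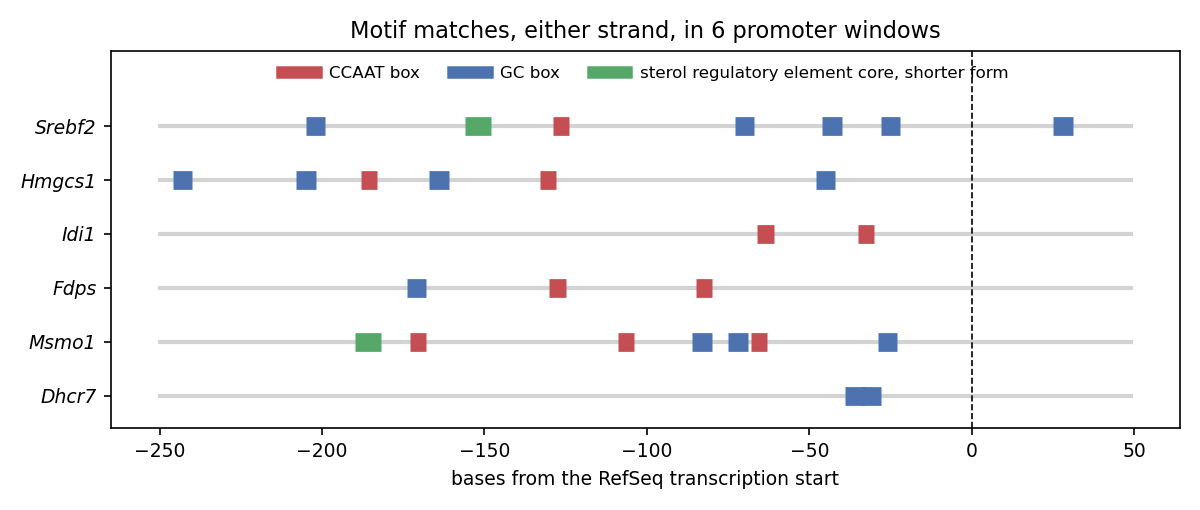
Matches of the CCAAT box, the GC box and the 8-letter sterol regulatory element form on either strand (coloured bars) along each of 6 promoter windows (grey lines), plotted by bases from the RefSeq start (dashed line at 0). CCAAT boxes appear in every window but that of Dhcr7, and the GC box in every window but that of Idi1.

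The RNA libraries held 8724543 to 10908458 reads over the listed genes. Levels are CPM, reads scaled to a common library size by a factor per library. The deposited values imply these factors up to a constant shared by all libraries. Desmin itself, Des, stood at 6100, 5980 and 6220 CPM in the null libraries and at 550, 559 and 641 CPM in the shDesmin libraries, so the target of the shRNA was lower in all 3 (9.54% of the null level, limma adjusted p = 7.3e-09). The shRNA group differed broadly: 31.4% of tested genes were lower and 27.5% higher (limma, adjusted p under 0.05 over all genes, two-sided). Of all called genes 53.3% were lower, a share that was 40.4% with each library centred on its median, 84.5% when libraries were scaled by totals without mitochondrial genes and 89.6% when scaled by totals. Mitochondrially encoded genes took 24.7 to 34.5% of reads in the null libraries and 35.0 to 39.1% in the shDesmin libraries, and their part in the results was not tested.

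Every gene but Hmgcs1 was lower in shDesmin RNA, and Hmgcs1 was not called. In all, 7 of 8 fell and 0 rose, against a background of 31.4% lower and 27.5% higher over all tested genes. The log2 fold over the 8 had a median of -0.69, beside -0.04 for all tested genes, and ran from -0.10 for Hmgcs1 to -1.10 for Msmo1. Only Msmo1 changed by 2-fold or more, where 14.3% of tested genes were called and at least 2-fold lower. At 1.5-fold or more, 6 of the 8 were lower, where 24.7% of tested genes were called and at least that much lower. The 2 groups of libraries did not overlap for the same 7 genes, where 64.9% of tested genes showed no overlap, 35.1% lower and 29.8% higher. The 8 genes were chosen with earlier results of these data known, so these counts describe them and are not a test of the pathway. In RNA of bulk cells, fewer cells of a type and less RNA per cell cannot be told apart.

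**Figure D2:**
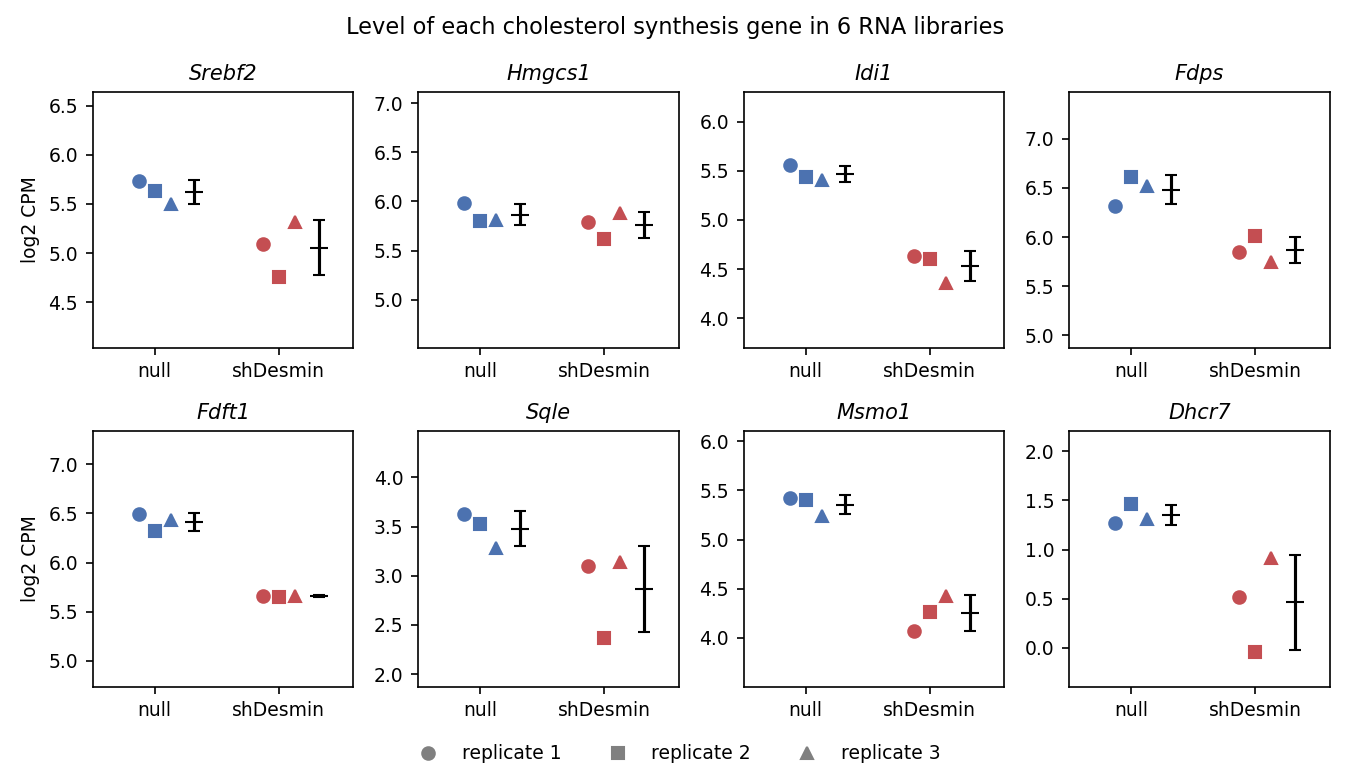
The log2 CPM of each of the 8 genes in 3 null (blue) and 3 shDesmin (red) libraries, with symbols for replicates and black bars for the mean and SD of each group (n = 3), every panel spanning the same number of log2 units. The groups are separate in every panel but that of Hmgcs1, and the shDesmin libraries spread most for Sqle and Dhcr7.

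Srebf2, the gene of the transcription factor SREBP-2 (ENSRNOG00000007400, rn6 chromosome 7, 123381077 to 123438603), fell. Its level was 53.3, 49.5 and 45.2 CPM in null replicates 1 to 3 and 34.1, 27.1 and 39.8 CPM in shDesmin replicates 1 to 3. All shDesmin values lay under all null values, and the highest shDesmin library came within 0.19 log2 units of the lowest null library. In log2 CPM the means were 5.62 ± 0.12 and 5.05 ± 0.28 (SD, n = 3 each), a log2 fold of -0.57 (SE 0.14, limma adjusted p = 0.0051), or 67.5% of the null level (95% interval 54.4 to 83.8%). The reads behind these values were 547 to 694 in the null and 181 to 305 in the shDesmin libraries.

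The enzymes that lead to the isoprene units and join them did not move alike. Hmgcs1 (ENSRNOG00000016552, chromosome 2, 52431601 to 52445055) encodes the cytosolic HMG-CoA synthase, which acts early in the mevalonate steps. It stood at 63.4, 55.5 and 56.0 CPM in null and at 55.3, 49.1 and 58.8 CPM in shDesmin libraries, so the groups overlapped. The log2 fold was -0.10 (SE 0.11, limma adjusted p = 0.44), and the 95% interval of the shDesmin level ran from 79.1 to 110.0% of the null level. Idi1 (ENSRNOG00000016690, chromosome 17, 57976268 to 57984036), the isomerase that balances the 2 isoprene building blocks, fell from 47.2, 43.3 and 42.5 to 24.9, 24.2 and 20.5 CPM. Every shDesmin library held Idi1 at least 0.77 log2 units under every null library. The log2 fold was -0.94 (SE 0.12, limma adjusted p = 4.8e-05), or 52.2% of the null level (95% interval 43.6 to 62.4%). Fdps (ENSRNOG00000043377, chromosome 2, 188392858 to 188413219), which makes farnesyl diphosphate, the branch point to sterols and to other isoprenoids, fell from 79.9, 97.7 and 91.8 to 57.7, 64.6 and 53.6 CPM. The groups were 0.31 log2 units apart. Its log2 fold was -0.61 (SE 0.11, limma adjusted p = 0.00066). RefSeq names 5 pseudogenes of Fdps and 1 of Idi1, and how reads shared with such copies were counted is not given in the sources used here, so both levels are uncertain to that extent. Idi1 also overlaps its neighbour Wdr37 by 100 bases in the table's coordinates, and Wdr37 fell too (log2 fold -1.28, limma adjusted p = 7.3e-05). Reads of this overlap cannot be assigned to either gene without strand.

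The squalene steps fell, with very different spread. Fdft1 (ENSRNOG00000021314, chromosome 15, 46339249 to 46367302) encodes squalene synthase, the first enzyme committed to sterols. It fell from 90.2, 79.8 and 86.7 to 50.7, 50.3 and 50.7 CPM, and the shDesmin libraries lay within 0.01 log2 units of each other. The log2 fold was -0.76 (SE 0.09, limma adjusted p = 4.4e-05), or 59.2% of the null level (95% interval 51.3 to 68.2%). Sqle (ENSRNOG00000009550, chromosome 7, 99609191 to 99624732), the squalene monooxygenase and a control point of the route, stood at 12.4, 11.5 and 9.70 CPM in null and at 8.55, 5.14 and 8.79 CPM in shDesmin libraries. Only 0.14 log2 units separated the groups, and shDesmin replicate 2 was far below the other 2. The log2 fold was -0.61 (SE 0.22, limma adjusted p = 0.033), with 34 to 68 reads per shDesmin library. The call was lost without shDesmin replicate 2 (log2 fold -0.36, adjusted p = 0.12), without null replicate 1 (adjusted p = 0.076) and without null replicate 2 (adjusted p = 0.085).

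Past lanosterol, Msmo1 fell most of the 8 and Dhcr7 was the least certain. Msmo1 (ENSRNOG00000032297, chromosome 16, 26859397 to 26875973), the sterol C4-methyl oxidase, fell from 42.8, 42.3 and 37.8 to 16.8, 19.2 and 21.5 CPM. The gap of 0.81 log2 units between the groups was larger than the range within either (0.18 in null and 0.36 in shDesmin libraries). Its means were 5.35 ± 0.10 and 4.25 ± 0.18 log2 CPM (SD, n = 3 each), a log2 fold of -1.10 (SE 0.13, limma adjusted p = 2.6e-05), which left 46.6% of the null level (95% interval 38.4 to 56.5%). Dhcr7 (ENSRNOG00000020776, chromosome 1, 217018916 to 217034904), the reductase of the last step, stood at 2.42, 2.76 and 2.47 CPM in null and at 1.43, 0.969 and 1.89 CPM in shDesmin libraries. Those values rest on 30 to 31 reads per null library and on 11, 6 and 14 reads per shDesmin library. The groups did not overlap, with a log2 fold of -0.88 (SE 0.34, limma adjusted p = 0.042), and the 95% interval, from 32.4 to 90.7% of the null level, was the widest of the 8. Its call was lost when any 1 library other than shDesmin replicate 3 was left out. The adjusted p was then 0.069, 0.12 and 0.091 without null replicates 1, 2 and 3, and 0.070 and 0.12 without shDesmin replicates 1 and 2. The authors' deposited table lists signed folds of -1.47 for Srebf2, -1.07 for Hmgcs1, -1.92 for Idi1, -1.53 for Fdps, -1.69 for Fdft1, -1.51 for Sqle, -2.15 for Msmo1 and -1.82 for Dhcr7.

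Among the shDesmin libraries, replicate 2 was the lowest for 5 of the 8 genes (Srebf2, Hmgcs1, Sqle, Dhcr7 and Fdft1) and replicate 3 the highest for 5 of 8 (Srebf2, Hmgcs1, Sqle, Msmo1 and Dhcr7). Over all tested genes, replicate 2 was the lowest for 35.4% and replicate 3 the highest for 32.1%. Averaged over the 8 genes, the level relative to the null mean was -0.66, -0.85 and -0.58 log2 units in shDesmin replicates 1, 2 and 3, and 0.05, 0.02 and -0.07 in the null libraries. Idi1 did not follow that order, with its lowest value in replicate 3, nor did Msmo1, lowest in replicate 1, nor Fdps, which was highest in replicate 2. Fdft1 hardly differed among the 3.

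Setting each enzyme against Srebf2 in the same library removes the scaling between libraries. Only the change of such a log2 ratio between the groups is read here, since the levels are not per length. The log2 ratio of Msmo1 to Srebf2 was -0.32, -0.22 and -0.26 in the null and -1.02, -0.50 and -0.88 in the shDesmin libraries, a shift of -0.54 without overlap. The log2 ratio of Hmgcs1 shifted the other way by 0.47, from 0.25, 0.17 and 0.31 in the null to 0.70, 0.86 and 0.56 in the shDesmin libraries. Both had an exact two-sided permutation p of 0.1, the smallest that 3 against 3 libraries allow (0.35 adjusted over the 7 enzymes). Of the 7 enzymes 1 was lower relative to Srebf2 and 1 higher without overlap, where 12.4% and 50.3% of all other tested genes were. The count of lower ones became 2 without null replicate 1 or shDesmin replicate 3 and 3 without shDesmin replicate 2. For Idi1, Fdps, Fdft1, Sqle and Dhcr7 the ratio to Srebf2 overlapped between the groups, with shifts from -0.37 for Idi1 to -0.05 for Fdps and exact permutation p from 0.2 to 1.0. Set against the median of all tested genes of the library instead, 6 of the 7 enzymes and Srebf2 lay lower without overlap, where 27.4% of tested genes did. The log2 ratio of Hmgcs1 to that median was 1.90 ± 0.09 in null and 1.98 ± 0.11 in shDesmin libraries (SD, n = 3 each), and the groups overlapped.

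**Figure D3:**
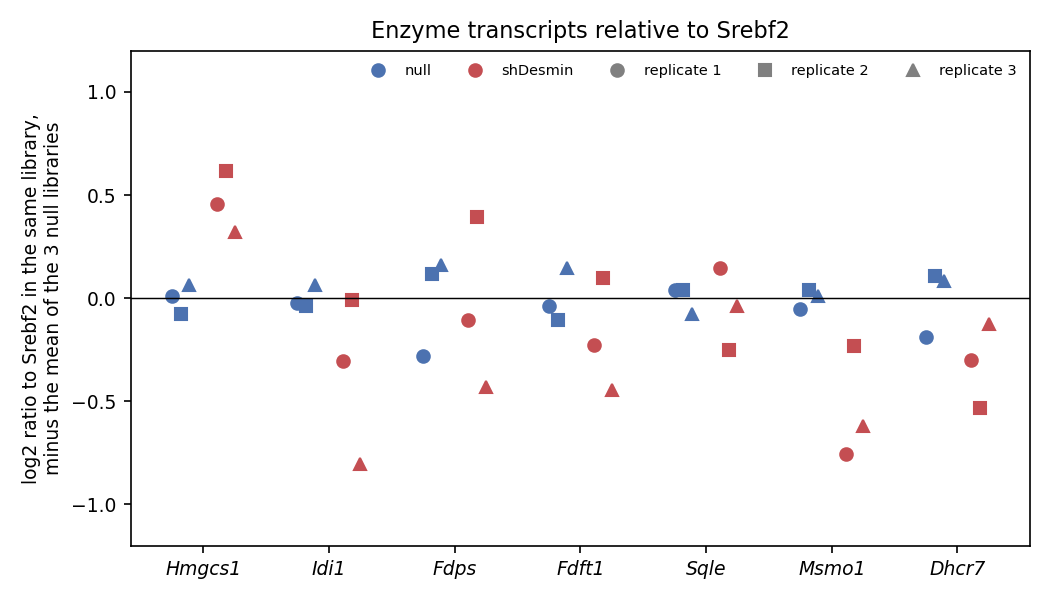
The log2 ratio of each of 7 enzyme transcripts to Srebf2 in the same library, minus the mean of the 3 null libraries, for null (blue) and shDesmin (red) libraries with symbols for replicates. Only Hmgcs1, shifted up by 0.47, and Msmo1, shifted down by 0.54, show groups that do not overlap.

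The size of the fall, and the call of 3 of the 8 genes, depended on the scaling between libraries. With each library centred on its median, every log2 fold rose by about 0.18 and 5 of 8 genes remained lower, Sqle (adjusted p = 0.098) and Dhcr7 (adjusted p = 0.089) no longer being called by limma. Quantile normalization also gave 5 of 8 and ended the same 2 calls (adjusted p = 0.12 and 0.070). Scaled by library totals, every log2 fold moved by -0.71 and all 8 were lower, Hmgcs1 included (log2 fold -0.81, limma adjusted p = 0.00090). Under those totals 6892 of all 11033 tested genes were lower and their median log2 fold was -0.75, so Hmgcs1 lay near the median gene. Of the 11033, 2698 were lower with median centring and 3185 with quantile normalization. Srebf2, Idi1, Fdps, Fdft1 and Msmo1 were lower under all 4 of these scalings. Msmo1 ranged from -0.92 to -1.81 and Srebf2 from -0.39 to -1.28 on the log2 scale, whereas Hmgcs1 changed sign, at 0.08 with median centring.

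**Figure D4:**
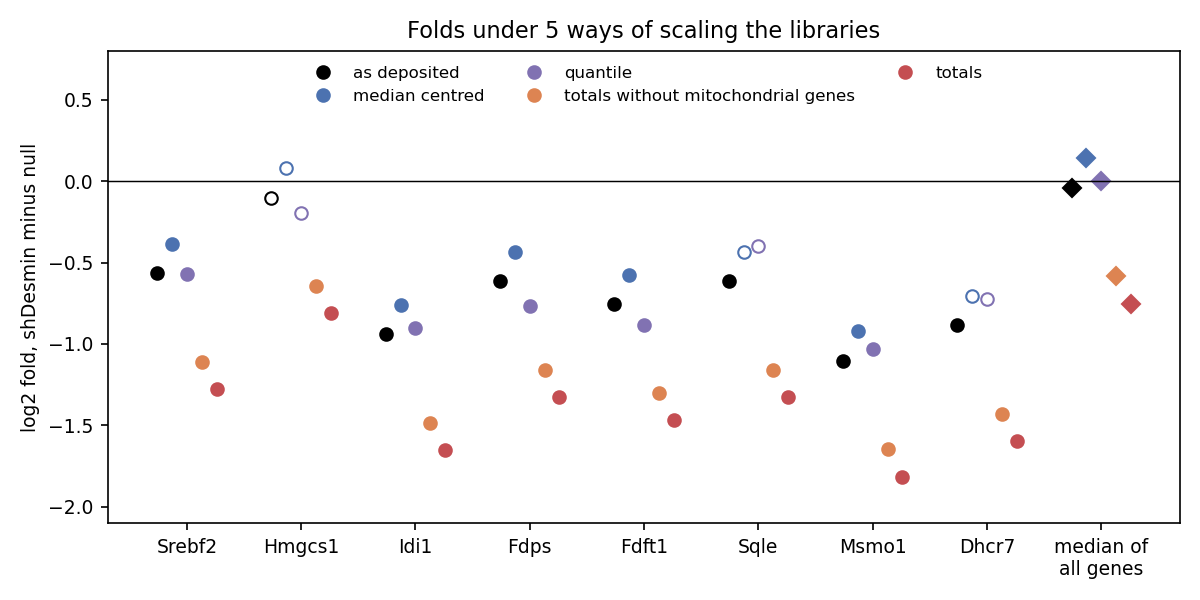
The log2 fold of each of the 8 genes, and the median over all tested genes (diamonds), under the deposited scaling and 4 others shown by colour, with filled circles for adjusted p under 0.05 and open circles for the rest. Centring and both kinds of totals each move all genes by a common amount, quantile normalization does not, and Hmgcs1 is the one gene with points on both sides of 0.

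Among the other enzymes of the route, 5 of 14 tested fell and 1 rose, with a median log2 fold of -0.41. The share that fell is near the 31.4% of all tested genes, so the count of falls alone does not set these enzymes apart. The 1 rise stands beside 27.5% of all tested genes, and the median beside -0.04. Neither difference was tested. The mevalonate pathway kinase gene Pmvk fell by 0.65 (adjusted p = 0.0020), Hsd17b7, a late ketosteroid reductase, by 0.71 (adjusted p = 0.0049), and the lanosterol demethylase gene Cyp51 by 0.41 (adjusted p = 0.0038) on the log2 scale in the same limma fit. Cyp51 was no longer called with median centring (adjusted p = 0.067). Lbr, which encodes both a sterol reductase and a lamin B receptor of the inner nuclear membrane, rose by 1.18 (limma adjusted p = 0.0019), though not under library totals (0.47, adjusted p = 0.18). Acat2, Mvk, Mvd, Lss, Tm7sf2, Sc5d, Nsdhl and Ebp were not called, with log2 folds from -0.79 for Acat2 to 0.14 for Ebp.

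**Figure D5:**
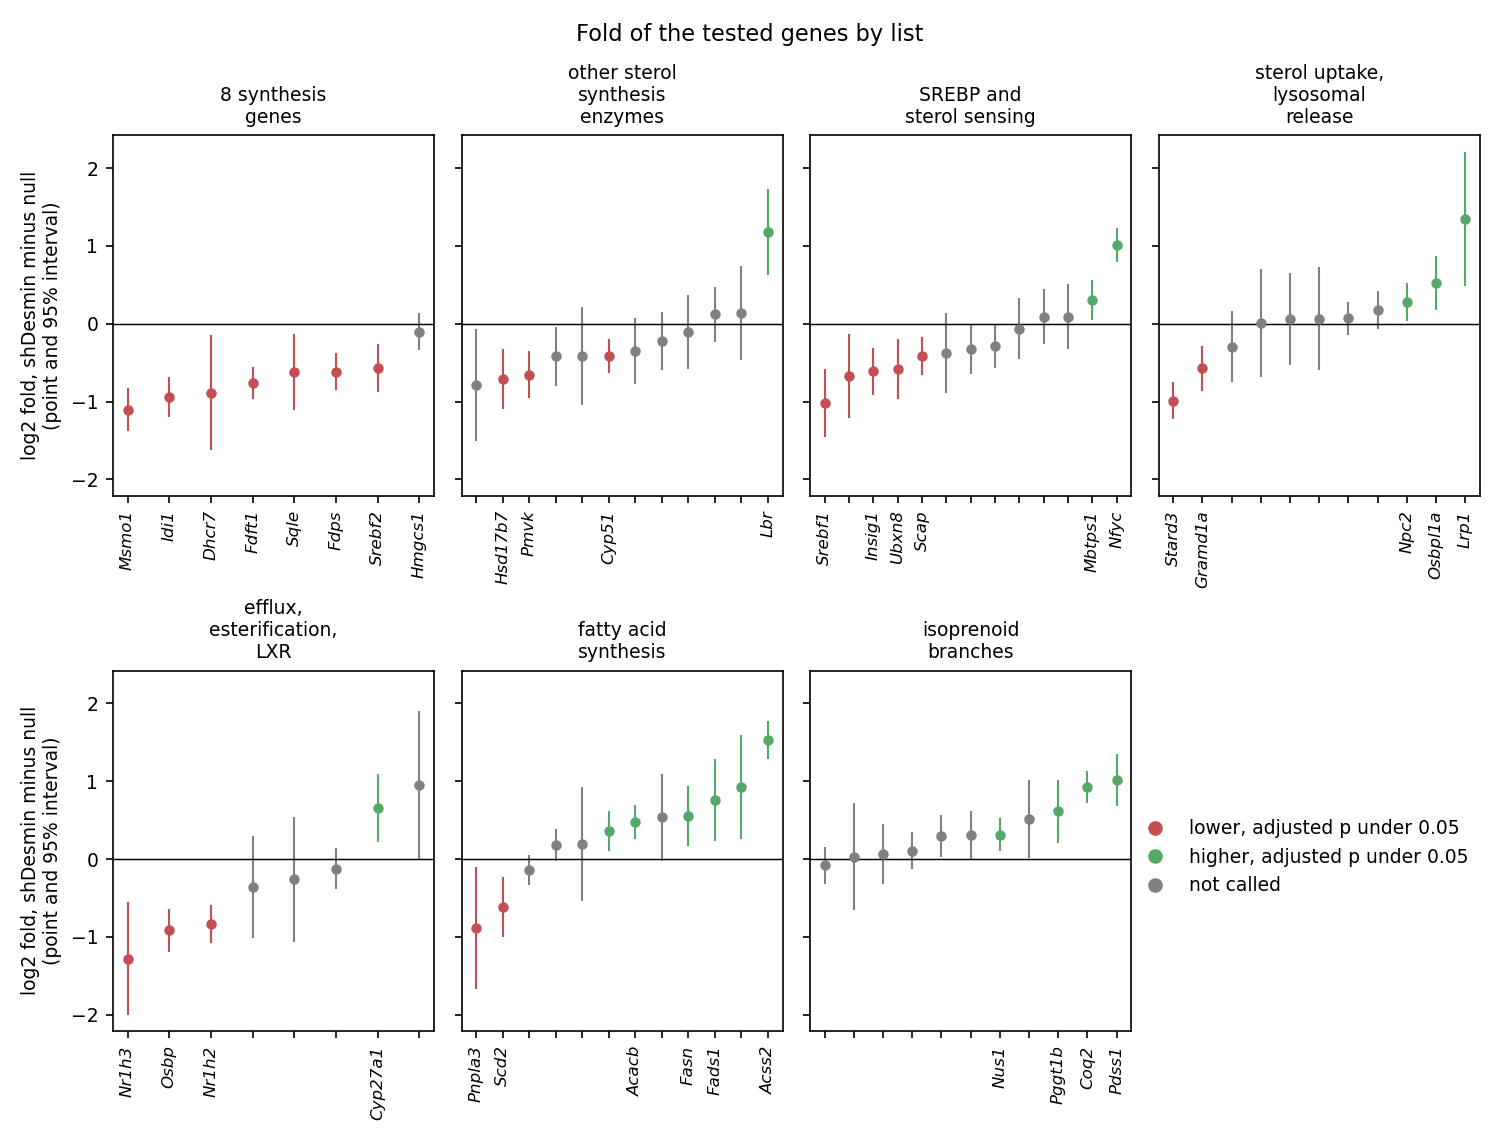
The log2 fold with its 95% interval for the tested genes of 7 lists that are reported by gene, ordered within each list and coloured by call (limma, adjusted p under 0.05), with names under the genes of the naming rule. Most points of both sterol synthesis panels lie below 0, while most of the fatty acid and isoprenoid points lie above it under the deposited scaling.

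Of 14 tested genes listed for sterol sensing and control of SREBP, 5 fell and 3 rose, with a median log2 fold of -0.31. Both shares are near those of all tested genes (31.4% lower and 27.5% higher). Ubxn8, a UBX-domain gene with no sterol role claimed here, entered this list by mistake, and without it, an alternative chosen after seeing the data, the count is 4 of 13 lower and 3 higher, with a median of -0.29. Srebf1, the sister gene of Srebf2, fell by 1.02 (limma adjusted p = 0.0012), Insig1, which retains SREBP in the endoplasmic reticulum and is itself a target, by 0.61 (adjusted p = 0.0029) and Scap, the SREBP escort, by 0.41 (adjusted p = 0.0070) on the log2 scale. The call of Scap was lost with median centring (log2 fold -0.23, adjusted p = 0.085). Ubxn8 fell by 0.58 (limma adjusted p = 0.013). Nfyc rose by 1.01 (limma adjusted p = 9.1e-06) and Mbtps1, the site-1 protease gene, by 0.31 (adjusted p = 0.040), but under library totals Mbtps1 was lower at -0.40 and Nfyc was not called (adjusted p = 0.062). Of the NF-Y subunits, which bind the CCAAT box, Nfya fell by 0.67 (limma adjusted p = 0.035), a call lost without null replicate 1 (adjusted p = 0.063), null replicate 2 (0.10) or shDesmin replicate 2 (0.12), and Nfyb stood at -0.33 without a call. The calls of Nfya and Ubxn8 were also lost with median centring (adjusted p = 0.094 and 0.064) and with quantile normalization (0.12 and 0.095), and that of Ubxn8 without null replicate 3 (0.050) or shDesmin replicate 1 (0.053). Mbtps1 lost its call without null replicate 2 or 3 or shDesmin replicate 1 or 3 (0.066 to 0.17). The 3 rises became 1 without null replicate 3 or shDesmin replicate 1, and the 5 falls became 2 with median centring and 3 with quantile normalization. Under library totals 12 were lower and 0 higher, and 10 and 1 when mitochondrial genes were left out of the totals. Of all 11033 tested genes 6892 were lower and 802 higher under totals, and 6253 and 1151 when mitochondrial genes were left out.

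Of 13 genes of sterol uptake and lysosomal release 4 were lower and 3 higher, shares near the 31.4% and 27.5% of all tested genes, with a median log2 fold of 0.06. Under both kinds of library totals 8 were lower and 0 higher, and with median centring 4 and 5. Of all 11033 tested genes 6892 were lower and 802 higher under totals, and 6253 and 1151 when mitochondrial genes were left out. With median centring these all-gene counts were 2698 and 3974. The sterol transfer gene Stard3 fell by 0.99 (limma adjusted p = 1.7e-05) and Gramd1a, another sterol transfer gene, by 0.57 (adjusted p = 0.0029) on the log2 scale. Stard3 and Gramd1a were lower under all 4 other scalings as well. The receptor gene Lrp1 rose by 1.35 (limma adjusted p = 0.012), Osbpl1a by 0.52 (adjusted p = 0.015) and Npc2, the lysosomal sterol carrier, by 0.28 (adjusted p = 0.047). With library totals none of these rises was called, with quantile normalization Npc2 was not (adjusted p = 0.40), and under totals Osbpl1a (-0.19) and Npc2 (-0.43) turned negative. Osbpl1a was not called without null replicate 3 (adjusted p = 0.072), nor Npc2 without null replicate 1 or 2 or shDesmin replicate 2 or 3 (0.091 to 0.15). Vldlr, Npc1, Lipa, Scarb1, Mylip and Stard4 were not called. Among 8 genes of efflux, esterification and the oxysterol receptors LXR, 3 fell and 1 rose, with a median of -0.31, where 31.4% and 27.5% of all tested genes did. With library totals 6 were lower and 0 higher, beside 6892 and 802 of all 11033 tested genes. The 1 rise became 0 without shDesmin replicate 2 and 2 without shDesmin replicate 3. Those that fell were the LXR genes Nr1h2 (log2 fold -0.83, limma adjusted p = 8.7e-05) and Nr1h3 (-1.28, adjusted p = 0.0059) and the oxysterol-binding protein gene Osbp (-0.92, adjusted p = 9.6e-05). Cyp27a1, the sterol 27-hydroxylase gene, rose by 0.65 (limma adjusted p = 0.015), a call lost without shDesmin replicate 2 (adjusted p = 0.068) and a direction reversed under library totals (-0.06).

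Under the deposited scaling, fatty acid synthesis genes, which respond mainly to the Srebf1 products, and genes of the isoprenoid branches beyond farnesyl diphosphate were mostly higher or not called. Of 12 fatty acid genes 2 fell and 6 rose, beside 31.4% and 27.5% of all tested genes, with a median log2 fold of 0.42. Under library totals 4 were lower and 1 higher, with median centring 1 and 8. Of all 11033 tested genes 6892 were lower and 802 higher under totals, and 2698 and 3974 with median centring. Acss2, a cytosolic acetyl-CoA synthetase gene, rose from 4.47 ± 0.07 to 6.00 ± 0.12 log2 CPM (SD, n = 3, log2 fold 1.53, limma adjusted p = 9.1e-07), and was also higher under library totals (0.82). Fads1 rose by 0.76 (limma adjusted p = 0.017), Fasn, the fatty acid synthase gene, by 0.55 (adjusted p = 0.019) and Acacb, an acetyl-CoA carboxylase gene, by 0.48 (adjusted p = 0.0017), but under library totals Fads1 was not called (0.05) and Fasn (-0.16) and Acacb (-0.23) turned negative. Scd2, a stearoyl-CoA desaturase gene, fell by 0.62 (limma adjusted p = 0.010) and Pnpla3, a lipase family gene, by 0.88 (adjusted p = 0.050, under the threshold before rounding). Scd2 was not called with quantile normalization (adjusted p = 0.056), nor Pnpla3 with that or median centring (0.11 and 0.099). Fads1 and Fasn lost their calls without null replicate 3 (0.065 for each) or shDesmin replicate 3 (0.076 and 0.085), and Pnpla3 without any library except shDesmin replicate 2 (0.061 to 0.19). The 6 rises became 2 without null replicate 3 or shDesmin replicate 3, and the 2 falls became 1 without any library except shDesmin replicate 2. Of 11 isoprenoid branch genes 4 rose and 0 fell, with a median of 0.30, and the share that rose is near the 27.5% of all tested genes. The 4 became 2 without null replicate 2 and 8 with median centring. Under library totals 5 were lower and 0 higher, beside 6892 and 802 of all 11033 tested genes. When mitochondrial genes were left out, 4 were lower and 2 higher, beside 6253 and 1151. Coq2 (0.93, limma adjusted p = 1.0e-05) and Pdss1 (1.02, adjusted p = 0.00016), both of coenzyme Q synthesis, rose, as did the prenyltransferase gene Pggt1b (0.61) and Nus1 (0.31). Both Pggt1b and Nus1 lost their calls without null replicate 2 (adjusted p = 0.066 and 0.062) or shDesmin replicate 1 (0.06 and 0.059), and Nus1 with quantile normalization (0.16). Under library totals none of the 4 was called higher, Pggt1b stood at -0.10 and Nus1 was lower at -0.40.

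A contrast between the sterol genes and these 2 branches taken within a library does not depend on a scaling factor per library, though it was not computed under quantile normalization. The mean log2 CPM of the 8 synthesis genes minus that of the 12 fatty acid genes was 0.75, 0.94 and 1.04 in null RNA against 0.07, -0.29 and -0.11 in shDesmin RNA, a shift of -1.02 without overlap. Minus the 11 isoprenoid genes it went from 0.79, 0.90 and 0.75 to -0.22, -0.46 and -0.09, a shift of -1.07. Against the 14 other sterol synthesis enzymes the shift was -0.42, and here too the groups did not overlap. The same held against the lists of sterol sensing (-0.52), uptake (-0.60) and efflux (-0.43). It also held against the cardiomyocyte, fibroblast, endothelial, and pericyte and smooth muscle marker lists, with shifts from -1.26 for endothelial to -2.44 for fibroblast markers. The macrophage and leukocyte list, with log2 folds of -3.17 for Csf1r and 0.19 for Cd68, was not compared. The separation is thus not particular to the fatty acid and isoprenoid branches. These shifts describe lists chosen with results known and carry no test.

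Markers of cell types moved too, under the deposited scaling, where 31.4% of all tested genes were lower and 27.5% higher. Library totals move every log2 fold by -0.71, so the counts of these lists depend on the scaling. Among the cardiomyocyte markers only the log2 fold of Nppa, 0.51, was smaller than that shift. The others ran from 1.31 for Tnnt2 to 2.52 for Ryr2. All 7 tested cardiomyocyte markers of 8 were higher, and their summed level went from 18200 to 22800 CPM in the null libraries to 58700 to 69500 CPM in the shDesmin libraries. Of 7 fibroblast markers 3 were tested and all 3 were higher (summed 2.95 to 9.81 CPM against 15.4 to 24.7 CPM). The fibroblast values rest on few reads, as few as 4 for a gene in a null library. Of 6 endothelial markers 5 were tested, 2 higher and 1 lower (108 to 184 CPM against 221 to 328 CPM), and of 7 pericyte and smooth muscle markers 5 were tested and 4 were higher (176 to 262 CPM against 410 to 606 CPM). Of 7 macrophage and leukocyte markers 2 were tested, and 1 of them, Csf1r, was lower. The level summed over the 3 listed was 17.1 to 17.9 CPM against 3.95 to 5.18 CPM, a fall that came from Csf1r (mean 15.0 against 1.68 CPM). The means of Cd68 (1.51 against 1.73 CPM) and of the untested Mrc1 (0.984 against 1.18 CPM) were not lower. None of the 4 adipocyte markers was analysed here. No listed marker was at 0 reads in every library. The part of these marker shifts in the fall of the sterol genes was not tested.

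None of the 8 genes lay in a lamina-associated domain of the scrambled control, by 50% of its length or by a single base, where 3.96% of tested genes lay inside by 50% and 4.72% touched one. The list holds 1883 domains over 1251.7 megabases of rn6, from merged replicates per the series' design text. Idi1 was the nearest, 77.96 kilobases from a domain of 1045.8 kilobases, followed by Sqle at 113.59, Hmgcs1 at 131.75 and Msmo1 at 223.63 kilobases. Fdft1 (1125.65), Fdps (1830.58), Dhcr7 (3586.92) and Srebf2 (7203.6 kilobases) were farther away, and 98.1% of tested genes lay closer to one than Srebf2. The median distance was 674.6 kilobases for the 8 and 822.9 for all tested genes. No domain list of shDesmin cells was used here, so no change at the lamina can be given for these genes.

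The 5 genes whose profile over the 6 libraries lay closest to the mean profile of the 8 were Pnrc1, Pea15, Slc38a10, Tm9sf1 and Hsph1, by Euclidean distance of centred log2 CPM among 6800 genes with a mean of at least 3 log2 CPM. Pnrc1 was at a distance of 0.03 and the other 4 between 0.09 and 0.11. Of the 8 themselves the closest to their own mean were Fdft1 (0.25) and Srebf2 (0.27) and the farthest Hmgcs1 (0.74), so 132 other genes followed the mean more closely than Fdft1 did. Pnrc1 fell by 0.70 on the log2 scale (limma adjusted p = 0.00027).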

How the data were processed

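The RNA table holds log2 values made by the authors. Tools listed in the submitters' processing notes, with no role given, include STAR 2.6.0c, Trimmomatic 0.32, limma, edgeR and featureCounts. In these deposited log2 values, 2 to the value is a step per library times a whole read count plus 0.5 (100% of values within 0.001), so levels are log2 CPM once a shared constant of 5.70 is subtracted. The factors implied by the scaling were 1.17 to 1.42 in null and 0.73 to 0.83 in shDesmin libraries. Only their relative sizes come from the deposited values. The absolute scale was set by assuming that the factors cancel out over all libraries. Absolute CPM, and the filter at 0 log2 CPM, rest on that assumption. With 0 reads the level is limited to that of 3 reads, 0.23 to 0.45 CPM, which covers counting error only. A second table from the authors holds a signed fold score, a t score and p-values, per the file headers, and served as an alternative. The LAD list gives starts and ends on rn6 from 3 merged replicates, per the series' design text.

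Tests used limma 3.58.1 in R 4.3.3 (eBayes with trend, group only). A gene was tested if 3 or more of the 6 libraries exceeded 0 log2 CPM, with Benjamini-Hochberg adjustment over 11033 genes, threshold 0.05, two-sided. The 0.5 added reads make the folds of sparsely covered genes too small. Up to 4 called genes per direction with the smallest adjusted p are given from each pathway list. Some genes of these lists are counted but not reported here by name. Nfya, Nfyb and Wdr37 were added after their values were seen. Apart from Nfyb, uncalled genes of the pathway lists are named only for the other sterol enzymes and the uptake genes. Members and lists were chosen with earlier results of these data known. The limma fit was run on simulated data with 200 of 11033 genes changed and a dispersion of 0.01. It called 87 of 100 genes with a log2 change of 1 and 44 of 100 with a change of 0.5. Of 10833 unchanged genes it called 9. Far more genes were called in the real data, so these rates do not carry over to it. No pair of replicates matched within counting error (chi-square over degrees of freedom 4.96 to 36.7), so each counted as 1 sample. Alternatives covered filter, pseudocount, scaling, variance model, replicate block and each library left out. Python 3.11.15 with numpy 2.4.6, scipy 1.17.1, pandas 2.3.3 and matplotlib 3.10.9 was used for the rest.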

Additional observations from a re-analysis of the deposited data

How the results depend on the processing

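Over 17 or 18 alternatives, Srebf2, Idi1, Fdps, Fdft1 and Msmo1 stayed lower and called by limma in every one, Sqle lost its call in 6 and Dhcr7 in 8 of 17, and Dhcr7 did not pass the stricter filter. The number of the 8 called lower ran from 5 to 8, and from 5 to 7 over the fits that left out 1 library. Their median log2 fold of -0.69 was -0.51 with median centring, -1.40 with library totals and -1.23 when mitochondrial genes were left out of the totals. The other sterol enzymes called lower, 5 under the deposited scaling, were 3 with median centring, 12 under totals and 11 under totals without mitochondrial genes, and the 1 called higher became 0 under both kinds of totals. All genes called lower or higher were 3459 and 3036, against 6892 and 802 under totals and 6253 and 1151 without mitochondrial genes. The scaling itself moves these values, since a common shift applies to all genes.

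Hmgcs1 turned to 0.0793 with median centring. With totals as the scale, and leaving mitochondrial genes out where 2 values are given, these turned negative: Acacb (-0.23 and -0.0664), Acly (-0.35 and -0.18), Mbtps1 (-0.40 and -0.24), Npc2 (-0.43 and -0.26), Nus1 (-0.40 and -0.23), Osbpl1a (-0.19 and -0.0256), Cyp27a1 (-0.0569), Fasn (-0.16) and Pggt1b (-0.10). Enzymes lower relative to Srebf2 without overlap numbered 1, with 1 to 3 when 1 library was left out, and 6 relative to the library median. No LAD overlap appeared under either overlap rule.

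With the replicate number as a block (replicate block), 6 of the 8 were lower, Dhcr7 being lost (adjusted p = 0.06), and 3491 and 3092 of all genes were lower and higher. The deviations of libraries sharing a number correlated at 0.13, -0.07 and -0.17, which gives no pairing. The fewest reads stood behind Dhcr7 (6 to 31 per library) and Sqle (34 to 161).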
